A study of Mus musculus with 6 samples.

Results

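The genes described here are the transcription factor gene Atf4 with other targets of its protein, and the genes of the cytosolic aminoacyl-tRNA synthetases, in sorted mouse blood stem and progenitor cells that lost Raptor. They were taken from a list of names, not from measured values. The list holds 13 ATF4 targets, Atf4 itself among them, and 20 synthetase genes. Of these, 12 ATF4 targets and 19 synthetases were measured, or 31 of the 18193 genes on the arrays, and Pycr1 and Dars were not analysed here. The methionyl-tRNA synthetase gene Mars carries its current name, Mars1. RNA was measured on 6 single-colour arrays, 3 per group. The mutant group came from C57BL/6 mice with both Raptor alleles floxed at exon 6 and the MxCre transgene, in which interferon switches on the promoter of the recombinase. The wild type group carried the same floxed alleles and no MxCre. Mice of both groups had 3 injections of the interferon inducer pIpC over 5 days (15 µg per g of body weight each), and Lin-, Flt3-, Sca1+, cKit+ bone marrow cells were sorted 5 weeks later. The controls therefore share the floxed alleles and the pIpC, but not the recombinase. The labels do not say whether each array holds RNA of a single mouse or of several, and p-values here cover only differences among these arrays, technical ones included.

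ATF4 is a basic leucine zipper transcription factor whose mRNA is translated better when the initiation factor eIF2 is phosphorylated, as in amino acid shortage or protein folding stress. In many cell types mTORC1, the kinase complex that needs Raptor, also promotes its translation. ATF4 induces enzymes that make amino acids, transporters that import them, and many of the aminoacyl-tRNA synthetases, the enzymes that attach each amino acid to its tRNA. It also induces other stress factors, among them Ddit3 (CHOP) and Trib3. ATF4 activity is set largely by translation and protein turnover, which mRNA signals do not measure.

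ATF4 binds, with a C/EBP partner, to a composite element whose core can be written TGATGNAA, N being any base. The core was searched on both strands of RefSeq promoter windows (build GRCm38.p6) of 300 bases, 250 before the annotated start and 50 after it. The windows of 22 measured members were searched. The core was held by 9 of these 22 (40.9%), against 1219 of all 27025 genes with a window (4.51%). The genes were listed as ATF4 targets or as synthetases, many of which it induces, so a higher share is no finding of these data. The holders were 5 of 11 ATF4 targets (Atf3, Asns, Chac1, Trib3, Nupr1) and 4 of 11 synthetases (Gars, Iars, Tars, Yars). Their copies of the core are shown, and the other 13 windows lack it. Each is 30 bases long, read on the strand that gives the core, which is in capitals, and the strand named is that of the printed sequence.
Asns, chr6:7693214-7693243, minus strand: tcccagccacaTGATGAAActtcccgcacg
Atf3, chr1:191183425-191183454, plus strand: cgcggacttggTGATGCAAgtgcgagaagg
Chac1, chr2:119351038-119351067, minus strand: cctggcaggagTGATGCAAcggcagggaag
Nupr1, chr7:126625562-126625591, plus strand: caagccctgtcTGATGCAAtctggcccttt
Trib3, chr2:152344028-152344057, plus strand: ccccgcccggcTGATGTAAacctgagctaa
Gars, chr6:55037960-55037989, minus strand: cgcccggtgcaTGATGAAAtagcgcagcca
Iars, chr13:49682126-49682155, minus strand: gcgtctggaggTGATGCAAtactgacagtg
Tars, chr15:11399655-11399684, plus strand: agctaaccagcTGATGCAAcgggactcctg
Yars, chr4:129189895-129189924, plus strand: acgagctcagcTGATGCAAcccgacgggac

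In 7 of these 9 copies, all but those of Asns and Yars, the core reads on the strand opposite to the gene. The copy of Trib3 began 15 bases after the annotated start, and those of Iars and Yars 8 and 4 bases after it. The copies of Asns, Gars and Tars began 23, 30 and 15 bases before the start. A match describes the letters of a window and is not a bound site, and the arrays hold no binding data.

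**Figure D1:**
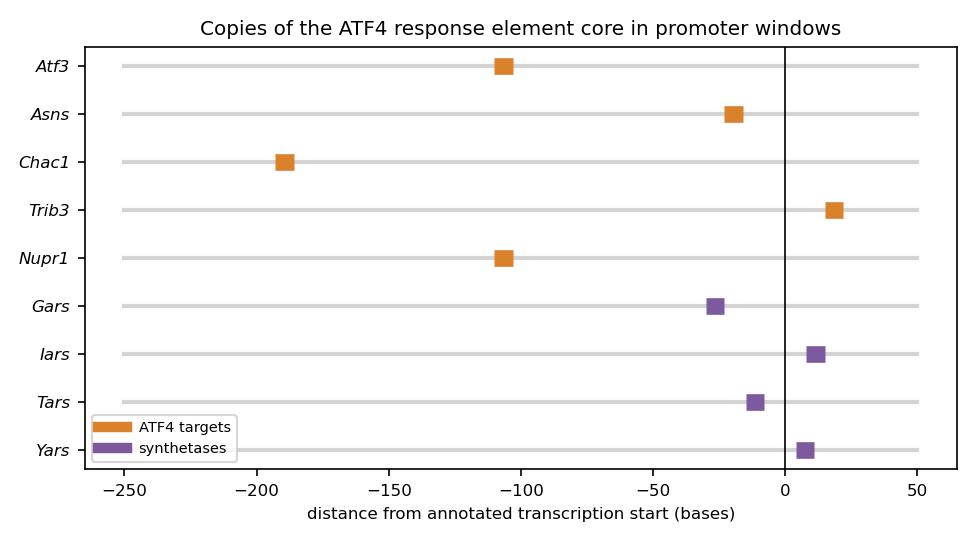
Position of each copy of the core in the promoter windows, in bases from the annotated transcription start (x axis), for the 9 genes found to hold one (y axis). Grey lines span the window of 300 bases, and coloured blocks mark the core, in orange for ATF4 targets and purple for synthetases. Each of the 9 genes holds 1 copy, and 3 of the copies lie after the start.

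The median log2 signal of an array was 6.85 to 6.94 over all 45101 probe sets, and 7.54 to 7.57 over the 18193 genes. Of the gate's markers, Kit stood at 10.79 ± 0.13 in mutant and 10.90 ± 0.24 in wild type arrays (SD, n = 3 each). Flt3, which the sort selected against, stood at 9.96 ± 0.28 in mutant and 10.15 ± 0.64 in wild type arrays, above the upper quartile of genes on each array (9.51 to 9.66). Rptor, the targeted gene, stood at 8.33 ± 0.35 in mutant and 8.11 ± 0.49 in wild type arrays (limma adjusted p = 0.77), and where its probes lie relative to the deleted exon was not analysed here. Arrays differed in sex-linked signal, with Y-linked Kdm5d high on wild type arrays 2 and 3 and low on all mutant arrays and wild type array 1. Results without those 2 arrays are therefore given below, and they set the mutants against wild type array 1 alone. A single wild type array has no spread of its own, so those values are given without a test.

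None of the 31 members was called changed by limma at an adjusted p under 0.05, where 0.110% of all genes were (10 higher and 10 lower). The smallest adjusted p among the members was 0.24, for Yars. At an unadjusted p under 0.05 there were 8 of 31 members (25.8%), against 1828 of the 18193 genes. These were 5 of 12 ATF4 targets, 2 with higher and 3 with lower mutant means, and 3 of 19 synthetases, each with a higher mutant mean. By direction, 5.81% of all genes passed that unadjusted threshold with higher and 4.24% with lower mutant means. Mutant and wild type values did not overlap in 6 of 31 members, 5 of them higher and 1 lower in the mutants, where 16.1% of all genes did not overlap (8.08% higher and 7.98% lower). That count of 6 is 19.4% of the members, close to the background. The 5 ATF4 targets at that unadjusted threshold were 1 without mutant array 2, and 3 each without mutant array 3 or wild type array 2. The 3 synthetases were 6 without wild type array 1, where 21.6% of all genes passed.

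**Figure D2:**
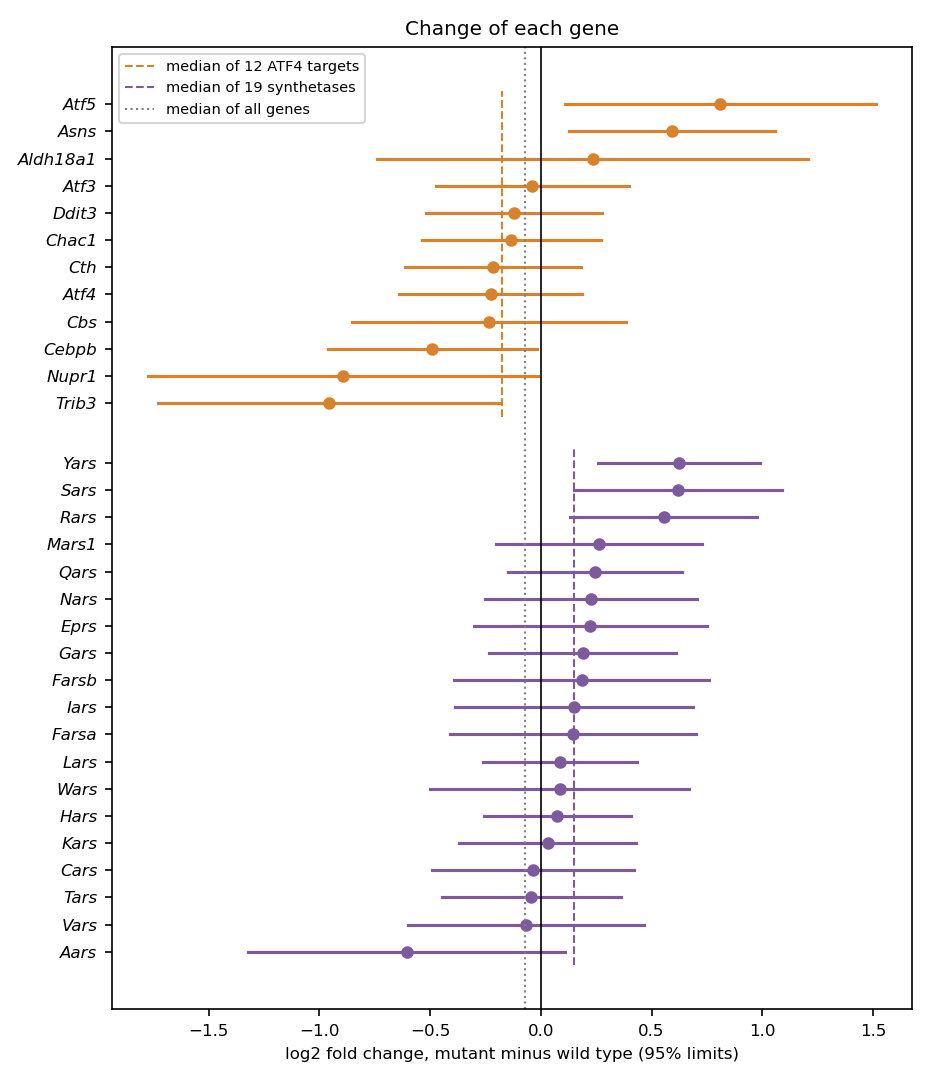
Log2 fold change, mutant minus wild type (x axis), of each measured gene (y axis), with limma's 95% limits as bars, ATF4 targets in orange above and synthetases in purple below. Dashed lines are the medians of 12 ATF4 targets (-0.17) and 19 synthetases (0.15), and the dotted line is the median of all genes (-0.07).

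The ATF4 targets were split in direction. Asns and Atf5 were higher in mutant arrays without overlap, Trib3 was lower without overlap, and Atf4 itself had overlapping groups. Of the 12 genes, 3 had a log2 fold change above 0 and 9 below (4 above 0 with Atf3 when quantile or cyclic loess normalization was applied again), with a median of -0.17, beside -0.07 for all genes, of which 40.4% were above 0. Changes ran from -0.96 for Trib3 to 0.81 for Atf5.

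Among the transcription factors, Atf4 had log2 signals of 10.77, 10.71 and 10.60 on mutant arrays 1, 2 and 3. Those of the wild type arrays, in the order 1, 2 and 3, were 11.17, 10.92 and 10.66. The groups overlapped, through wild type array 3. The gene had a log2 fold change of -0.23 ± 0.18 (SE), with 95% limits of -0.64 to 0.19 and a limma adjusted p of 0.67. It was -0.10 without wild type array 1, -0.35 without wild type array 3 and -0.48 against wild type array 1 alone. At the other Atf4 probe sets it was -0.38 and -0.11, so all 3 lay below 0.

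Atf5, whose product is a related factor that is also translated under eIF2 phosphorylation, had log2 signals of 7.90, 7.83 and 8.43 on mutant arrays and of 7.74, 6.64 and 7.36 on wild type arrays. Every mutant value lay above every wild type value, narrowly for wild type array 1 and widely for wild type array 2. The log2 fold change was 0.81 ± 0.30 (SE; limma adjusted p = 0.45), the highest of the 31 members, and it was 0.51 without wild type array 2 and 0.32 against wild type array 1 alone.

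Cebpb encodes C/EBPβ, a partner of ATF4 and a factor of myeloid cells. It stood at 8.95, 8.33 and 8.41 on mutant arrays and at 9.11, 9.13 and 8.92 on wild type arrays (log2 signal). Mutant arrays 2 and 3 lay clearly below all wild type arrays, while mutant array 1 lay within their range. The log2 fold change was -0.49 ± 0.20 (SE; limma adjusted p = 0.49). Summed signal of 9 measured neutrophil markers of 10 listed was 2103 to 5870 on mutant and 19278 to 27919 on wild type arrays (linear units), so it moved the same way as Cebpb, and its part in that value was not tested. In sorted bulk samples fewer cells of a type and less RNA per cell cannot be told apart.

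Ddit3 encodes CHOP, a factor linked to cell death in prolonged stress. Its log2 signals were 9.75, 9.38 and 9.63 on mutant arrays and 9.59, 9.87 and 9.66 on wild type arrays, and the groups overlapped widely. It had a log2 fold change of -0.12 ± 0.17 (SE), with 95% limits of -0.52 to 0.28. Its other probe set went the other way, at 0.31 ± 0.55. Atf3, an early stress factor, averaged 5.21 ± 0.29 on mutant and 5.25 ± 0.08 on wild type arrays (SD, n = 3 each), below the lower quartile of genes on each array (5.50 to 5.83), with a log2 fold change of -0.04.

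Among the enzymes of amino acid metabolism, Asns was the clearest. It encodes asparagine synthetase, which makes asparagine from aspartate and glutamine. Its log2 signals were 9.76, 9.92 and 9.77 on mutant arrays and 8.93, 9.15 and 9.58 on wild type arrays. All mutant arrays lay above all wild type arrays, closest to wild type array 3. The difference was 0.59 ± 0.20 on the log2 scale (SE; limma adjusted p = 0.40), or 1.51-fold. The second Asns probe set gave a larger one, 1.09 ± 0.25, and against wild type array 1 alone the first gave 0.89.

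Aldh18a1 encodes the enzyme that starts proline synthesis from glutamate. It averaged 8.55 ± 0.35 on mutant and 8.32 ± 0.88 on wild type arrays (SD, n = 3 each), with wild type array 2 at 7.31 far below the others. This gave a log2 fold change of 0.24 ± 0.42 (SE), and those of its 4 other probe sets ran from -0.13 to 0.19. Cbs and Cth, which turn homocysteine into cysteine, followed no clear pattern. Cbs stood at 7.52, 8.42 and 7.75 on mutant and 7.80, 8.26 and 8.33 on wild type arrays, with overlapping groups and a log2 fold change of -0.23 ± 0.27 (SE). Cth stood at 3.92, 3.84 and 3.82 on mutant and 3.81, 4.25 and 4.16 on wild type arrays, near the bottom of the scale, with a log2 fold change of -0.22.

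The stress effectors Trib3, Nupr1 and Chac1 all had lower mutant means. Trib3 encodes a pseudokinase that dampens ATF4 and AKT. It stood at 7.32, 6.73 and 7.09 on mutant and 7.48, 8.75 and 7.79 on wild type arrays (log2 signal), with no overlap and the widest gap to wild type array 2. Its log2 fold change was -0.96 ± 0.33 (SE; limma adjusted p = 0.41), and it was -0.29 at its other probe set. It was -0.59 without wild type array 2 and -0.43 against wild type array 1 alone.

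Nupr1, a small stress-induced chromatin protein, stood at 7.36, 8.21 and 8.27 on mutant and 9.55, 8.19 and 8.78 on wild type arrays. Wild type array 2 lay just below mutant arrays 2 and 3, so the groups overlapped. Its mean difference gave a log2 fold change of -0.89 ± 0.38 (SE; limma adjusted p = 0.49), and the other Nupr1 probe set gave -0.64 ± 0.25. The change was -0.54 without wild type array 1 and -1.60 against that array alone. Chac1, which breaks down glutathione, stood at 5.10, 5.22 and 5.43 on mutant and 5.17, 5.47 and 5.50 on wild type arrays. These values lay below the lower quartile of genes on each array, overlapped, and gave a log2 fold change of -0.13 ± 0.17 (SE).

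**Figure D3:**
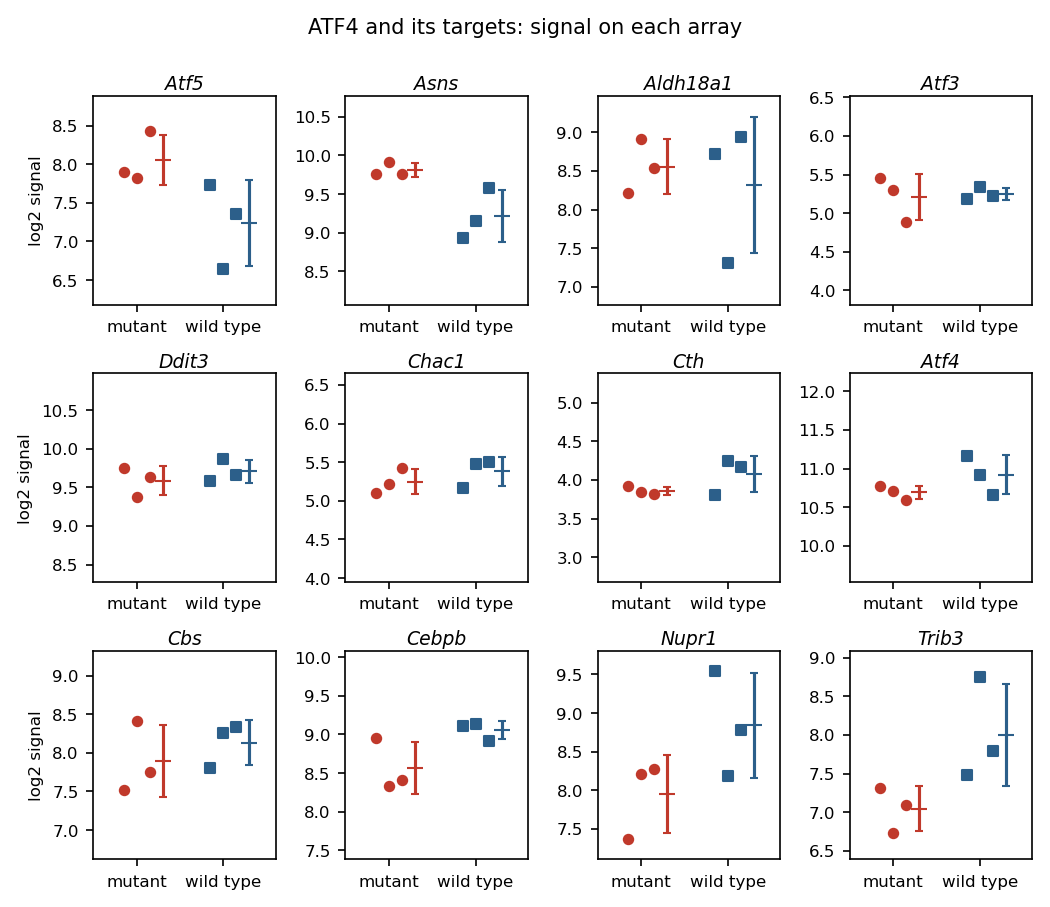
Log2 signal (y axis) of 12 ATF4 targets on each array, mutant arrays 1 to 3 as red circles and wild type arrays 1 to 3 as blue squares, in order of replicate number, with group mean and SD beside them. Panels run from the highest to the lowest log2 fold change and share one height of scale. Asns and Atf5 show mutant values above all wild type values, and Trib3 shows mutant values below them.

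The synthetases lay mostly on the other side. Of 19 genes, 15 had a log2 fold change above 0 and 4 below (78.9% above 0, beside 40.4% of all genes), or 14 and 13 above 0 when quantile or cyclic loess normalization was applied again, with a median of 0.15. The median was 0.22 without wild type array 1, 0.08 without mutant array 2 and 0.05 when wild type array 3 was left out. Without the lower 50% of genes by mean signal, which keeps all 19 synthetases, the median of all genes was 0.06. The part of signal level in the distance to all genes was not tested. The changes were small, with 15 of 19 between -0.07 and 0.26. Yars, Sars and Rars stood out with changes of 0.55 to 0.62 and groups that did not overlap, and Aars had the one large change in the other direction. Limma's 95% limits lay within -1 and 1 in 17 of 19 synthetases, as they did in 80.2% of all genes.

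Yars encodes the tyrosyl-tRNA synthetase. Its log2 signals were 8.95, 9.04 and 9.10 on mutant arrays and 8.23, 8.54 and 8.45 on wild type arrays. Both groups were tight and well apart. The log2 fold change was 0.62 ± 0.16 (SE; limma adjusted p = 0.24), or 1.54-fold, and it was 0.80 against wild type array 1 alone. Its promoter window is the one whose core begins 4 bases after the start.

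Sars, for serine, stood at 11.35, 11.04 and 11.69 on mutant and 10.89, 10.62 and 10.72 on wild type arrays. The groups were apart, and came closest between mutant array 2 and wild type array 1. The log2 fold change was 0.62 ± 0.20 (SE; limma adjusted p = 0.38), with 0.48 ± 0.23 at the second probe set. Rars, for arginine, stood at 11.33, 11.41 and 11.13 on mutant and 10.99, 10.72 and 10.50 on wild type arrays. It too did not overlap, with a log2 fold change of 0.55 ± 0.18 (SE; limma adjusted p = 0.39). Against wild type array 1 alone the changes were 0.47 for Sars and 0.30 for Rars.

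Aars, for alanine, stood at 8.93, 9.43 and 9.57 on mutant and 9.47, 9.71 and 10.56 on wild type arrays. The groups overlapped, and wild type array 3 was the highest. Its log2 fold change was -0.61 ± 0.31 (SE; limma adjusted p = 0.56), and the other Aars probe set gave -0.27 ± 0.25. The change was -0.28 without wild type array 3 and -0.16 against wild type array 1 alone.

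Several synthetases form the multi-tRNA synthetase complex, a cytosolic assembly held together by scaffold proteins. All 7 measured genes of the complex had a log2 fold change above 0, except that Kars turned to -0.02 and -0.05 when quantile or cyclic loess normalization was applied again, and their median was 0.22. Of 12 genes outside it 8 were above 0, with a median of 0.12, and cyclic loess turned Wars below 0. Qars, for glutamine, stood at 12.40, 12.30 and 12.67 on mutant and 12.25, 12.06 and 12.32 on wild type arrays, with a narrow overlap and a log2 fold change of 0.25 ± 0.17 (SE). Its 3 other probe sets gave 0.19 to 0.82. Mars1, for methionine, stood at 10.77, 11.15 and 10.93 on mutant and 10.98, 10.68 and 10.40 on wild type arrays, with overlap through wild type array 1.

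Eprs, a bifunctional enzyme for glutamate and proline, stood at 11.42, 11.30 and 11.29 on mutant and 11.58, 11.00 and 10.76 on wild type arrays. Its highest value was that of wild type array 1. The log2 fold change was 0.22 ± 0.23 (SE), with 0.53, 0.51 and 0.19 at the other probe sets. Iars, for isoleucine, also had its highest value on wild type array 1, at 11.13, 11.13 and 11.31 on mutant and 11.51, 10.96 and 10.66 on wild type arrays. Against wild type array 1 alone the signs turned for Eprs (-0.25), Iars (-0.32) and, barely, Mars1 (-0.03). Lars (leucine) and Kars (lysine) had log2 fold changes of 0.09 ± 0.15 and 0.03 ± 0.17 (SE).

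Outside the complex, Nars, for asparagine, stood at 12.06, 11.86 and 11.89 on mutant and 12.11, 11.44 and 11.59 on wild type arrays, again with wild type array 1 highest. Its log2 fold change was 0.22 ± 0.21 (SE), and -0.17 against wild type array 1 alone. Gars, for glycine, stood at 11.32, 11.36 and 11.65 on mutant and 11.32, 11.01 and 11.44 on wild type arrays, with overlap and a log2 fold change of 0.19 ± 0.18 (SE). Its product serves the cytosol and the mitochondria.

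Farsa and Farsb encode both subunits of the phenylalanyl-tRNA synthetase. Farsa stood at 9.59, 9.99 and 9.69 on mutant and 9.15, 9.73 and 9.95 on wild type arrays, and Farsb at 10.84, 11.24 and 10.80 on mutant and 10.88, 11.14 and 10.30 on wild type arrays. Groups overlapped in both genes, with log2 fold changes of 0.15 ± 0.24 and 0.18 ± 0.25 (SE). Probe sets disagreed in Farsa, where the others gave -0.33 to 1.29, and in Farsb they ran from 0.13 to 1.01. Against wild type array 1 alone the change of Farsa was 0.61.

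The remaining synthetases differed little between groups. Hars (histidine) averaged 11.19 ± 0.03 on mutant and 11.12 ± 0.07 on wild type arrays, and Tars (threonine) averaged 10.28 ± 0.01 on mutant and 10.32 ± 0.25 on wild type arrays (SD, n = 3 each). Wars (tryptophan), Cars (cysteine), Tars and Vars (valine) had log2 fold changes of 0.09, -0.04, -0.04 and -0.07. Limits of these changes were widest for Wars, at -0.50 to 0.67, and narrowest for Hars, at -0.26 to 0.41, so a modest change in either direction remains within them. Over all 19 synthetases the median SD was 0.14 among mutant and 0.29 among wild type arrays, and over all genes it was 0.16 among mutant and 0.29 among wild type arrays. By catalytic fold, 8 of 10 class I enzymes and 7 of 9 class II enzymes were above 0, with medians of 0.19 and 0.15. The bifunctional Eprs was counted in class I only.

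**Figure D4:**
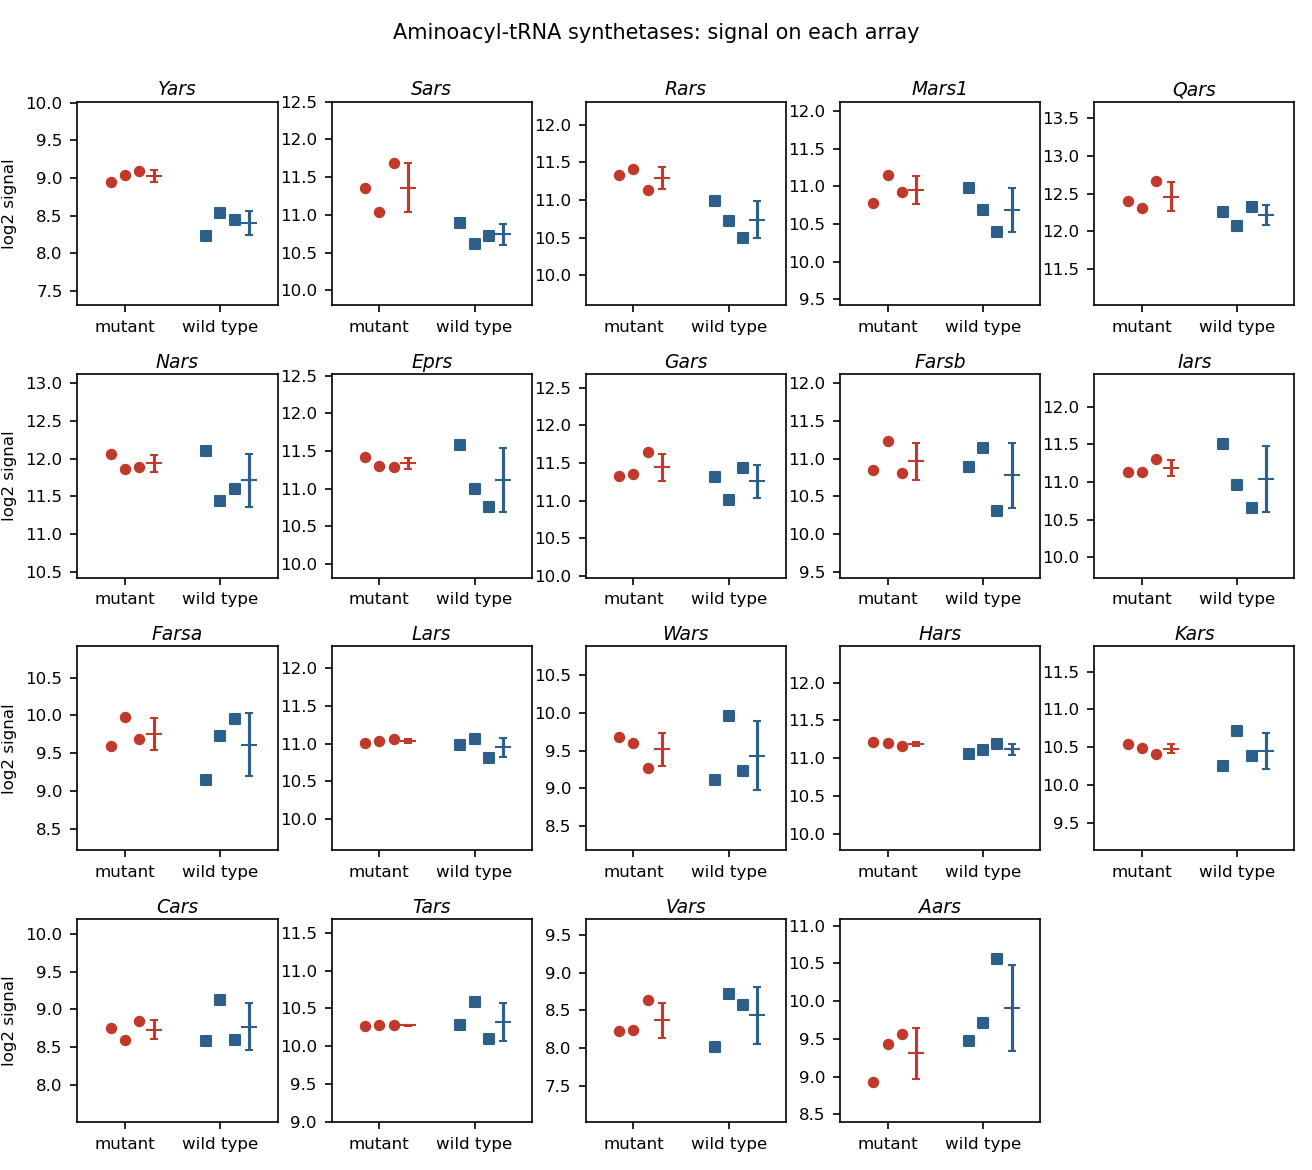
Log2 signal (y axis) of 19 cytosolic synthetase genes on each array, mutant arrays 1 to 3 as red circles and wild type arrays 1 to 3 as blue squares, in order of replicate number, with group mean and SD beside them. Panels run from the highest to the lowest log2 fold change and share one height of scale. Yars, Sars and Rars have mutant values above all wild type values, and most other panels overlap.

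Synthetases and the other ATF4 targets were set against each other array by array. For each array the median over a list was taken of the log2 signal minus that gene's mean over all 6 arrays. The synthetase median was 0.02, 0.04 and 0.07 on mutant arrays 1, 2 and 3, while wild type arrays 1, 2 and 3 had -0.08, -0.05 and -0.21, so the groups did not overlap. The median of the ATF4 targets was -0.04, -0.10 and -0.13 on mutant arrays and -0.04, 0.14 and 0.15 on wild type arrays, so that wild type array 1 lay with the mutants. Over all genes the same split of wild type arrays was present, at -0.06, -0.01 and -0.03 on mutant and -0.08, 0.06 and 0.08 on wild type arrays. The synthetase median minus the ATF4 target median was 0.06, 0.13 and 0.20 on mutant and -0.04, -0.19 and -0.35 on wild type arrays.

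In terms of fold changes the median of the synthetases exceeded that of the ATF4 targets by 0.32. Against wild type array 1 alone the excess was 0.13, with medians of 0.14 for the synthetases and 0.01 for the ATF4 targets. There 13 of 19 synthetases and 6 of 12 ATF4 targets were above 0, and the median of all genes was 0.04. These are descriptions of lists whose members were chosen with earlier results known, and no test was made of them.

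**Figure D5:**
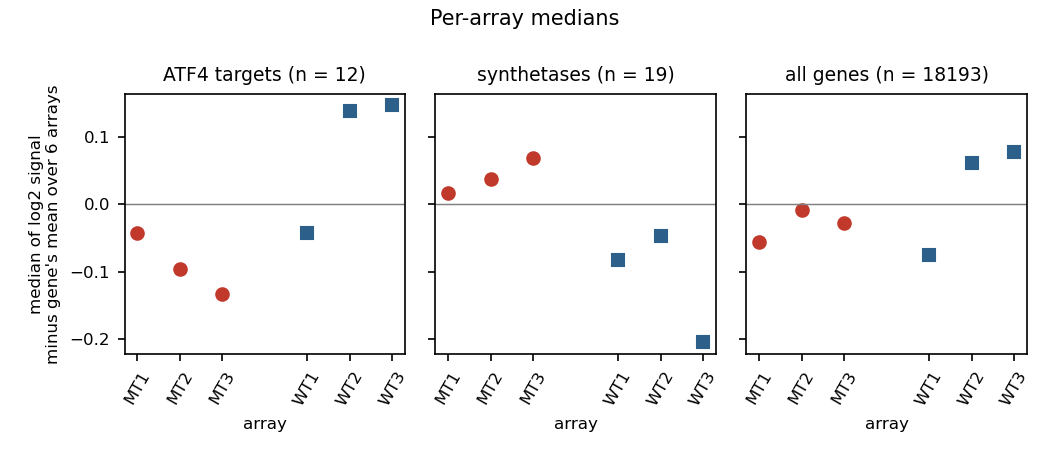
Median, over each list, of log2 signal minus the gene's mean over 6 arrays (y axis), for each array (x axis; MT, mutant, red circles; WT, wild type, blue squares). The synthetases lie above 0 on the 3 mutant arrays and below on the 3 wild type arrays, while for the ATF4 targets and for all genes wild type array 1 lies near the mutant arrays.

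Genes with and without the core in their promoter window overlapped in their changes. Of the 9 members with it 4 had a log2 fold change above 0, from -0.96 (Trib3) to 0.62 (Yars), with a median of -0.04. Of the 13 members whose window lacks these letters 9 were above 0, from -0.49 (Cebpb) to 0.81 (Atf5), with a median of 0.18. Within the synthetases the median was 0.17 over 4 genes with the core and 0.22 over 7 without it.

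Upstream of ATF4, genes of eIF2, its kinases, its exchange factor eIF2B and its phosphatase subunits were examined. None of 15 measured genes was called (limma), 3 had an unadjusted p under 0.05 (2 with higher and 1 with lower mutant means, beside 5.81% and 4.24% of all genes), and the median log2 fold change was 0.07. Eif2b3, a subunit of eIF2B, had log2 signals of 9.42, 9.32 and 9.24 on mutant and 8.84, 8.68 and 8.52 on wild type arrays. All mutant values were higher, with a log2 fold change of 0.64 ± 0.16 (SE; limma adjusted p = 0.24). Ppp1r15a (GADD34), a stress-induced subunit that directs dephosphorylation of eIF2, stood at 9.30, 9.55 and 9.52 on mutant and 10.02, 10.60 and 9.87 on wild type arrays.

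All mutant values of Ppp1r15a were lower, with a log2 fold change of -0.71 ± 0.22 (SE; limma adjusted p = 0.34). Eif2s3x, the X-linked gene of the eIF2 gamma subunit, had one of 0.47 ± 0.16 (SE). Its Y-linked copy Eif2s3y averaged 4.32 ± 0.33 on mutant and 8.43 ± 3.85 on wild type arrays (SD, n = 3 each), so it followed the sex-linked split, whose part in the value of Eif2s3x was not tested. Eif2b5, another eIF2B subunit, had a log2 fold change of 0.49 ± 0.29 (SE). Eif2ak2 (PKR), an interferon-induced eIF2 kinase, had one of -0.11 ± 0.16 and Impact, an inhibitor of the eIF2 kinase GCN2, one of -0.17 ± 0.23 (SE).

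Of 30 further ATF4 targets measured, none was called (limma), 6 had an unadjusted p under 0.05 with higher and 5 with lower mutant means (beside 5.81% and 4.24% of all genes), and the median log2 fold change was 0.17. Stc2, a secreted glycoprotein, had log2 signals of 8.22, 7.04 and 7.34 on mutant and 6.05, 5.95 and 4.98 on wild type arrays, with a log2 fold change of 1.87 ± 0.38 (SE; limma adjusted p = 0.16). Phgdh, the first enzyme of serine synthesis, stood at 11.61, 12.08 and 11.87 on mutant and 11.12, 10.93 and 11.10 on wild type arrays. Slc7a5, the light chain of a transporter of large neutral amino acids, stood at 9.77, 10.24 and 10.22 on mutant and 9.10, 9.31 and 9.53 on wild type arrays. In these 3 genes no value was shared between the ranges of the groups.

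Among those with lower mutant means, Ddit4 (REDD1), an inhibitor of mTORC1, stood at 9.58, 8.67 and 9.54 on mutant and 11.10, 10.69 and 10.46 on wild type arrays. Its groups were well apart, with a log2 fold change of -1.49 ± 0.29 (SE; limma adjusted p = 0.15). Jdp2, a leucine zipper factor, had a log2 fold change of -0.60 ± 0.19, and Mthfd2, a mitochondrial folate enzyme, one of -0.52 ± 0.18 (SE). Groups did not overlap in 13 of these 30 genes (43.3%), 8 with higher and 5 with lower mutant values, beside 16.1% of all genes.

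Of 16 mitochondrial synthetases, none was called (limma), and 1 had an unadjusted p under 0.05, with a higher mutant mean (6.25%, beside 5.81% of all genes). A log2 fold change above 0 was found in 14 (87.5%, beside 40.4% of all genes), with a median of 0.12. Without the lower 50% of genes by mean signal, the median of all genes was 0.06. That filter drops dim members of this list such as Mars2 (mean 4.92 in both groups), while the median of 0.12 covers all 16. Wars2, the mitochondrial enzyme for tryptophan, had log2 signals of 8.34, 8.47 and 8.94 on mutant and 7.90, 6.52 and 8.06 on wild type arrays, apart but with wild type array 2 far below. Its log2 fold change was 1.09 ± 0.40 (SE; limma adjusted p = 0.44). Hars2 and Fars2, for histidine and phenylalanine, had changes of 0.49 ± 0.22 and 0.41 ± 0.21, and Aars2 and Tars2, for alanine and threonine, of -0.20 ± 0.24 and -0.09 ± 0.20 (SE). Of the scaffolds of the cytosolic complex, Eef1e1 had a log2 fold change of 0.34 ± 0.20, Aimp2 of 0.03 ± 0.18 and Aimp1 of -0.07 ± 0.21 (SE).

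Markers of some other cell types moved with the groups. Besides the neutrophil markers, the summed signal of 6 megakaryocyte markers was 1948 to 2933 on mutant and 4487 to 5120 on wild type arrays (linear units). That of 8 mast cell and basophil markers of 10 listed was 5377 to 8632 on mutant and 2252 to 3258 on wild type arrays. That of 10 macrophage and dendritic cell markers was 5827 to 12608 on mutant and 2778 to 3589 on wild type arrays. The 8 measured stem and progenitor markers of 10 listed summed to 15019 to 16140 on mutant and 18806 to 21627 on wild type arrays. This sum includes Flt3, which the sort selected against. By gene, Kit, Flt3, Cd34 and Gata2 had overlapping groups, and Meis1, Hlf, Mecom and Procr were lower in the mutants without overlap. Groups overlapped for 6 of 8 erythroid markers, at 4633 to 8434 on mutant and 3273 to 6429 on wild type arrays, and for 7 of 8 B cell markers, at 552 to 1002 on mutant and 752 to 1033 on wild type arrays. For 6 of 8 T and NK cell markers the sums were 3196 to 3564 on mutant and 2803 to 3054 on wild type arrays. Taken singly, all 6 of these genes had overlapping groups, with 4 log2 fold changes above 0 and 2 below. The part of these differences in the values of the ATF4 targets and synthetases was not tested.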

How the data were processed

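Per the labels' protocols, a PicoPure kit was used for RNA and Nugen kits for amplification and biotin labelling. The authors' deposited intensity values, 1 for each probe set on each array, come from RMA, as the submitters' processing notes state without version or settings. They are linear (7.60 to 33795), so log2 was taken. Probe sets were named through the platform annotation. Of 45101 probe sets, 34945 name a single gene, and for each of the 18193 genes the probe set with the highest mean log2 value was taken. Mutant and wild type arrays were compared by lmFit and eBayes of limma 3.58.1 (R 4.3.3) over all genes, mutant minus wild type, with two-sided p-values adjusted by the Benjamini-Hochberg method. The number of arrays limits the precision. In simulated data on 18193 genes for this comparison, limma called 23 of 75 genes changed 2-fold, 62 of 75 changed 4-fold, 47 of 50 changed 8-fold, and 6 unchanged genes. No pair of arrays shared more than 71 identical values over the named probe sets.

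Members and lists were chosen with earlier results of these data known. All members are named. Values on every array are given for up to 10 ATF4 targets and 12 synthetases with the smallest limma p, and of each other list up to 3 genes per direction with the smallest p are named. Alternatives covered the normalization, an added value of 16 before log2, the probe set of a gene, filters on dim genes, the variance model, array weights, the threshold, Y-linked signal, a replicate block and leaving out arrays. Promoter sequences are from RefSeq (GRCm38.p6). The genes Cth, Cars, Hars, Lars, Nars, Rars, Vars and Wars had no window in the table used, and 1 further window is not reported here.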

Additional observations from a re-analysis of the deposited data

How the results depend on the processing

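The 21 alternatives include the fit against wild type array 1 alone, which is given without a test. None of the members was called by limma under any of the others, among them an adjusted p under 0.10. Of 31 members, 14 kept their sign throughout, and all but 5 (Asns, Cebpb, Rars, Sars and Yars) moved by over 1.5 times when some 1 array was left out. The count of all genes called was 0 with the signal of Y-linked genes as covariate (6.32% of genes at an unadjusted p under 0.05). It was 8 with array weights, 11 after adding 16, and 12 when each probe set formed a row. With trend and robust fitting it was 40, at an adjusted p under 0.10 it was 49, and leaving out each array in turn gave 5 to 31. With the Y covariate, the ATF4 target median was 3.7e-04, its gap to the synthetase median was 0.13, and 2 ATF4 targets had an unadjusted p under 0.05 and 6 a log2 fold change above 0. Without wild type arrays 2 and 3 the median was 0.0093, the gap was 0.13, and 6 ATF4 targets had a log2 fold change above 0. That fit takes its spread from the mutant arrays alone, so it is given without p-values. The Y-linked signal was high on wild type arrays 2 and 3 only. Both settings therefore rest mainly on wild type array 1 and are not separate checks. The count of ATF4 targets at an unadjusted p under 0.05 was 3 with array weights and 3 without the lower 50% of genes, which leaves 8 ATF4 targets. The synthetase median was 0.082 after cyclic loess was applied again. Leaving out each array gave 0.047 to 0.22 for the synthetase median, 0.18 to 0.43 for the gap, 1 to 4 ATF4 targets and 2 to 6 synthetases at an unadjusted p under 0.05. The cause of these shifts was not tested.

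Signs turned in 17 members under some setting, some near 0 and others as far as -0.32 (Iars) and 0.36 (Vars). With the Y covariate the log2 fold changes were 0.0082 (Atf3), -0.19 (Aldh18a1), 0.073 (Chac1), 0.032 (Cth), 0.087 (Cbs), 0.17 (Cars), -0.21 (Eprs), -0.27 (Iars), -0.15 (Nars), 0.018 (Tars) and 0.34 (Vars). Without wild type arrays 2 and 3 they were 0.021 (Atf3), -0.16 (Aldh18a1), 0.081 (Chac1), 0.050 (Cth), 0.099 (Cbs), 0.16 (Cars), -0.25 (Eprs), -0.32 (Iars), -0.030 (Mars1), -0.17 (Nars) and 0.36 (Vars). Kars and Wars were at -0.025 and -0.019 with array weights and at -0.049 and -0.0061 after cyclic loess, Kars at -0.022 after quantile normalization, Atf3 at 0.087 after cyclic loess and 0.059 after quantile normalization, and Ddit3 at 0.093 with the mean of its probe sets. Leaving out each array, ranges crossed 0 for Aldh18a1 (-0.27 to 0.54), Atf3 (-0.16 to 0.12), Cars (-0.13 to 0.14), Farsa (-0.087 to 0.32), Farsb (-0.052 to 0.37), Iars (-0.043 to 0.38), Kars (-0.066 to 0.16), Tars (-0.16 to 0.090), Vars (-0.28 to 0.075) and Wars (-0.076 to 0.35).

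With the replicate number as a block 10 genes were called. Deviations of same-numbered arrays from their group means correlated at 0.184, -0.026 and 0.063, and those of differently numbered arrays at -0.156 to 0.094. Not every array correlated best with its own number. With 3 arrays per group these values cannot decide whether the numbers pair the arrays.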
